A study of Mus musculus with 6 samples.

Results

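Oxidative phosphorylation genes, which encode the protein complexes of the mitochondrial respiratory chain and the ATP synthase, were followed in mOS482, a mouse osteosarcoma line. They were taken as the genes that a probe set names alone and whose symbol in the deposited table starts with Nduf, Uqcr, Cox4 to Cox8 or Atp5 or is Sdha, Sdhb, Sdhc or Sdhd. The rule found 84 of the 13213 genes measured, on 157 probe sets, and the first letters of the symbol gave the complex: 39 genes of complex I, 4 of complex II, 8 of complex III, 17 of complex IV and 16 of complex V. The rule used names and no measured value. It also took in 6 genes that are not subunits: the complex I assembly factors Ndufaf1, Ndufaf3 and Ndufaf4, Cox4nb (now Emc8, a neighbour of Cox4i1), Atp5s (now Dmac2l) and Atp5sl (now Dmac2). All 84 had a value on every array, and no filter on low values was applied.

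The cells came from a spontaneous tumour of an animal without Rb and p53, a background that all arrays share. They were stably infected with a hairpin and selected with hygromycin, with 3 plates carrying a scrambled hairpin and 3 a hairpin against Sox2, 1 array per plate. The plates of a group were plates of 1 infected line, so that the p-values measure the spread between plates and arrays only. The targeted gene, Sox2, read 0.069, -0.039 and -0.033 in scrambled arrays 1, 2 and 3, against 0.17, 0.055 and 0.58 in the arrays labelled Sox2 shRNA. It did not fall (log2 difference 0.27 ± 0.14, limma adjusted p = 0.154), so that all directions below rest on the labels alone. The deposited values are log2 values centred per probe set near the scrambled arrays, so that only differences between arrays can be read. The level of each gene, its signal over background and the cell type markers' presence are unknown here for the same reason. Hybridisation spike-ins, bacterial RNAs added in equal amount to each array, averaged 0.84 higher on the log2 scale in the arrays labelled Sox2 shRNA over 18 probe sets. The 5' probe set of beta-actin, a measure of how far labelling reached along the RNA, differed by -0.87 on the log2 scale, with array 1 labelled Sox2 shRNA at -1.56 and the others at -0.57 and -0.47. The 3' probe set of the same gene differed by 0.063. Each of these gaps in the spike-ins and the 5' probe set gave a two-sided exact permutation p = 0.1, the smallest that 3 arrays against 3 allow. Array 1 labelled Sox2 shRNA was the farthest from the scrambled arrays in both measures. These control values move with every result below, and their part in it was tested only through a covariate for the spike-in level.

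The respiratory chain passes electrons from NADH, through complex I, and from succinate, through complex II, by way of coenzyme Q to complex III, cytochrome c and complex IV, where oxygen is reduced. Complexes I, III and IV pump protons across the inner mitochondrial membrane, and complex V, the ATP synthase, lets them flow back to make ATP. Apart from complex II, each complex joins nuclear-encoded subunits, those measured here, with others encoded in mitochondrial DNA. Several complex IV subunits exist as a widely expressed isoform and an isoform of muscle, lung or testis.

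Oxidative phosphorylation genes were lower more often than higher in the arrays labelled Sox2 shRNA, by modest amounts. Of the 84 genes, 38 fell and 7 rose (limma adjusted p under 0.05 over all 13213 genes), which is 45.2% and 8.33% of them, while 21.8% of all genes measured fell and 16.8% rose. The median log2 difference was -0.25, against 0.078 for all genes. The medians of the 84 genes in arrays 1, 2 and 3 labelled Sox2 shRNA were -0.37, -0.20 and -0.21, and those of the scrambled arrays lay between -0.0057 and 0.0058. In 48 genes, or 57.1%, all 3 arrays labelled Sox2 shRNA lay below all scrambled arrays, and in 14, or 16.7%, above them, against 27.6% and 29.3% of all genes. Only Atp5b and Sdhd fell at least 2-fold, which is 2.38% of the members against 3.62% of all genes. In bulk RNA, fewer cells of a type and less RNA per cell cannot be told apart. Without scrambled array 1, 2 or 3 the rises came to 4, 3 and 2, where 10.1%, 9.82% and 8.74% of all genes rose, and the falls to 31, 31 and 30, where 16.2%, 15.6% and 14.7% fell. When the level of the spike-ins entered the fit, 16 genes, or 19%, were lower and 0 higher, against 7.83% and 6.37% of all genes, and the median was -0.15. All 38 falls stayed below 0 in that fit and all 7 rises above 0. The spike-in level moves with the groups, so that the SE can grow, as for Cox8b from 0.123 to 0.205. In other lost calls the difference itself shrank, as for Ndufaf1 from -0.71 to -0.016, Ndufa2 from 0.40 to 0.05 and Ndufa4 from -0.50 to -0.14. A lost call alone therefore does not show whether the difference is absent.

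**Figure D1:**
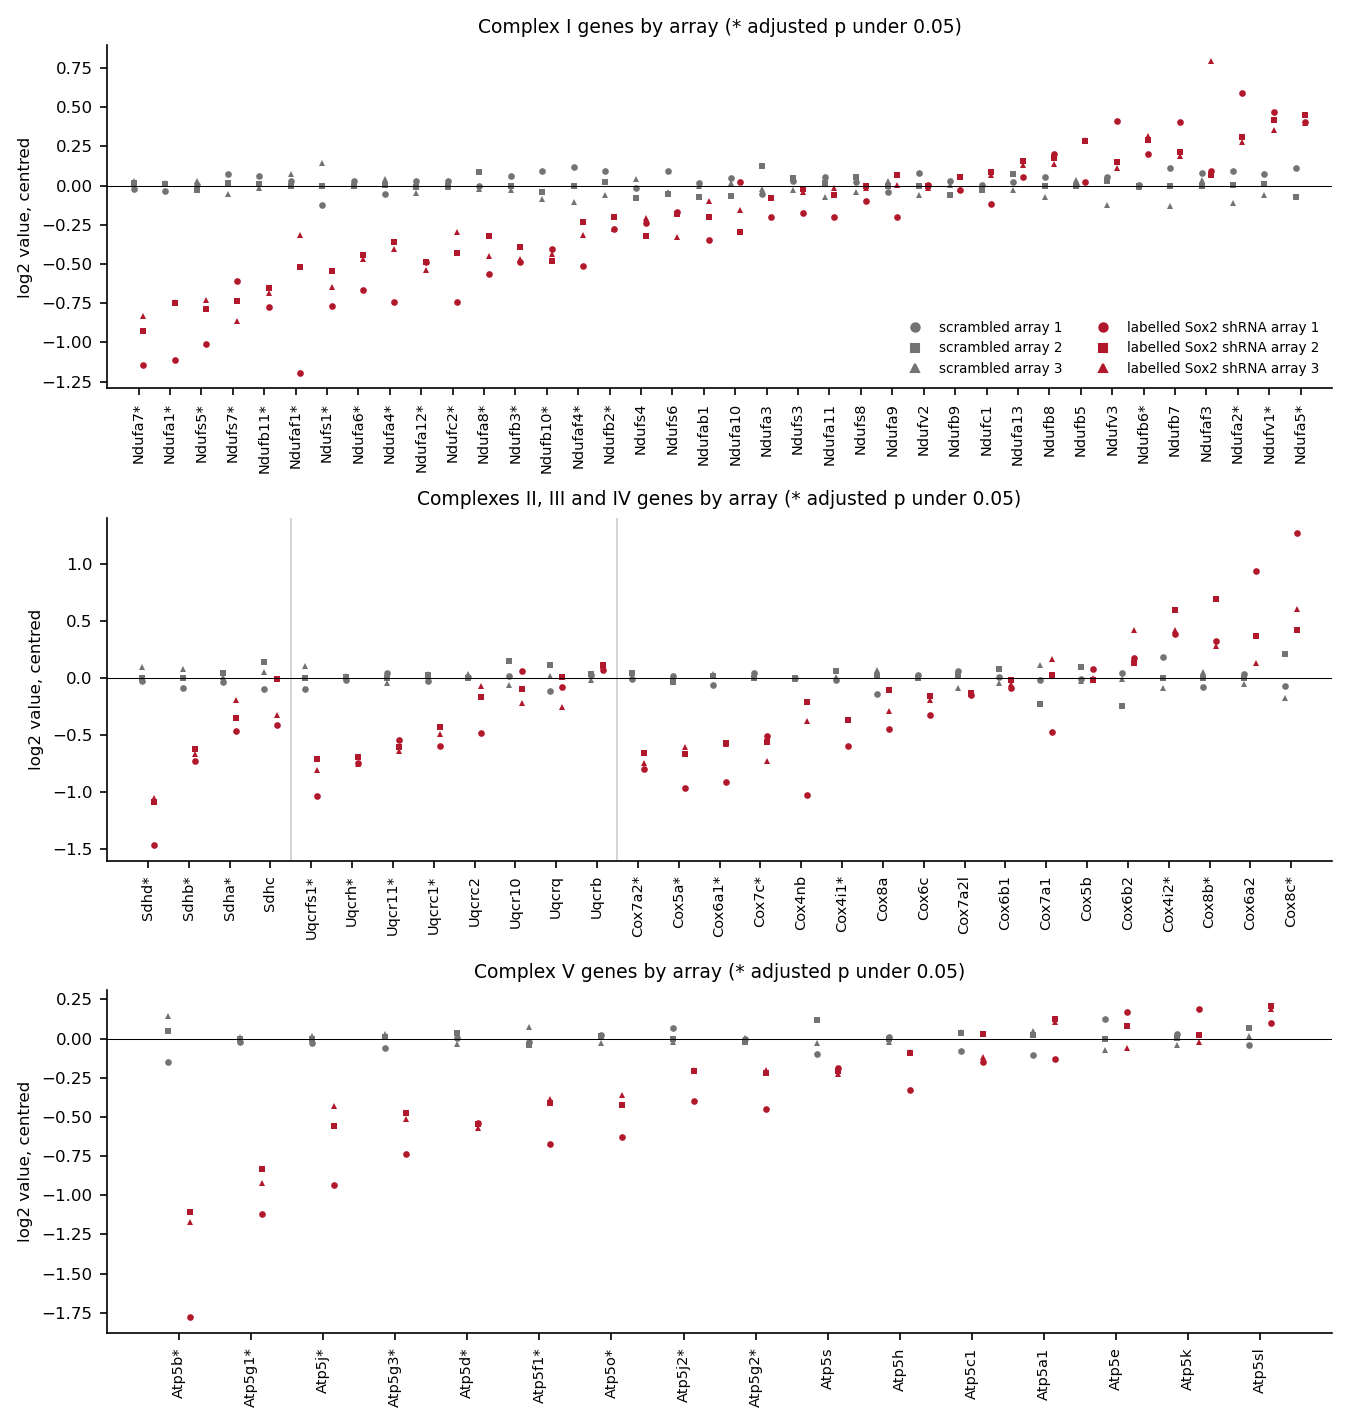
Centred log2 value (vertical axis) of the oxidative phosphorylation genes (horizontal axis, ordered by difference within complexes I to V) on 3 scrambled arrays (grey) and 3 arrays labelled Sox2 shRNA (red), with symbols marking array 1, 2 and 3. Red points lie below all grey points in most genes with an asterisk, from Atp5b at -1.78 to -1.11 upwards, and above them in the 7 that rose, and 1 of the 84 genes is not drawn.

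**Figure D2:**
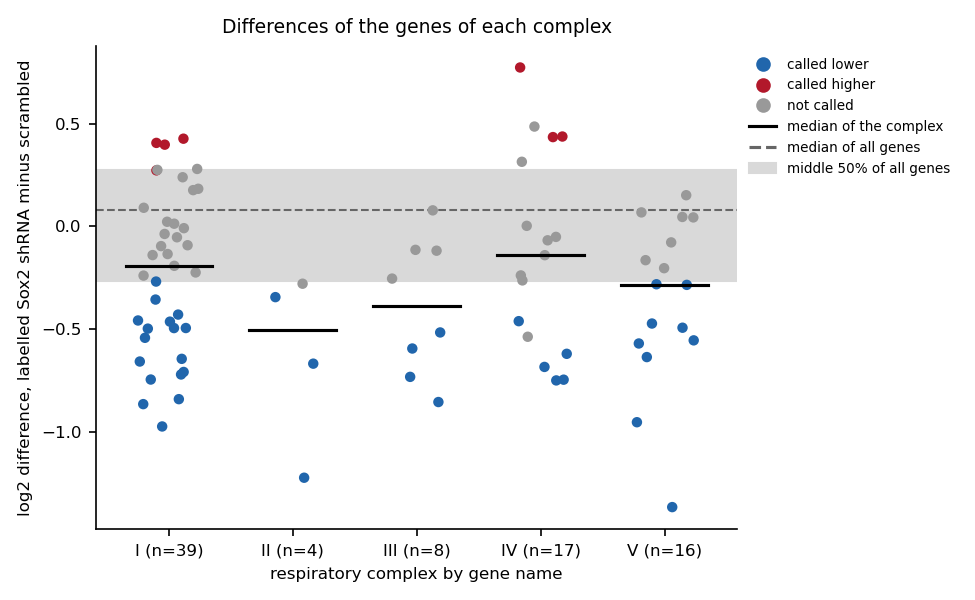
Log2 difference (vertical axis, labelled Sox2 shRNA minus scrambled) of the genes of each complex, 1 point per gene, coloured by its call at a limma adjusted p under 0.05, with a black bar at the median of each complex. The medians of complexes I to V (-0.19, -0.51, -0.39, -0.14 and -0.28) lie below the dashed line at 0.078, the median of all genes, and the grey band spans the middle 50% of all genes.

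Promoter sequences are shown because many respiratory chain genes are known targets of a few shared factors: NRF1, ETS factors such as GABPA, the receptor ERRA and YY1. RefSeq sequences of build GRCm38.p6, from 250 bases before to 50 after the annotated start, were found for 69 of the 84 genes. They were searched on both strands for 4 motifs: the NRF1 palindrome, CCGGAAGT for ETS factors, TCAAGGTCA for ERRA and AAGATGGCG for YY1. The NRF1 letters were present in 17 of the 69 (24.6%), against 5.19% of 27025 genes in the table and 9.32% of the 10164 measured genes that it holds. For YY1 these shares were 11.6% against 1.64% and 2.83%, for ERRA 2.9% against 0.466% and 0.335%, and for the ETS motif 7.25% against 4.31% and 7.27%. A match describes letters in this window and no binding. Of the 17 genes with the NRF1 letters 11 fell and 1 rose, and of the 8 with the YY1 letters 3 fell and 0 rose. Of the 5 with the ETS letters 2 fell and of the 2 with the ERRA letters 2 fell, and of the 41 with none of the motifs 19 fell and 3 rose. For comparison, 45.2% of the 84 members fell and 8.33% rose, and 21.8% of all genes measured fell and 16.8% rose. The share of falls among other measured genes with these letters is not given here. No order among the motifs was tested. The promoters printed are those of 5 genes that fell and of Ndufa5, the one gene with a motif that rose, with the motifs in capitals; these examples were chosen after their values were seen. Sdhd holds the NRF1 letters from base -79 to -70 and the ERRA letters, on the other strand, from base 37 to 45 after the start. Cox6a1 holds the NRF1 letters at 2 places, Ndufs5 and Ndufa5 at 1, Uqcrh the ETS letters on the other strand and Ndufs7 the YY1 letters.
Sdhd, chr9:50603800-50604099, minus strand: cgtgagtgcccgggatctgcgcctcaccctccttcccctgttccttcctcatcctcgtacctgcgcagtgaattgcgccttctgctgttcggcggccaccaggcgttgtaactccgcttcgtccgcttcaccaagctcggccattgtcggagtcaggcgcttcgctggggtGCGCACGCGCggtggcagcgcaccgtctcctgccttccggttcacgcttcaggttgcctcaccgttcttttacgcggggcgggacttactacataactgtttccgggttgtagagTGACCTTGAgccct
Ndufs5, chr4:123718137-123718436, minus strand: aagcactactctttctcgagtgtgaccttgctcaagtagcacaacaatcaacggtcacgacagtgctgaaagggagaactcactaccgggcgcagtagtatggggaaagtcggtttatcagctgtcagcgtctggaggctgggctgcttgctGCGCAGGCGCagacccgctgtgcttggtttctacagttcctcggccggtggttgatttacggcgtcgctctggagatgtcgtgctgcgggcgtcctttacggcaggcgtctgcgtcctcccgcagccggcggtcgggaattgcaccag
Cox6a1, chr5:115348909-115349208, minus strand: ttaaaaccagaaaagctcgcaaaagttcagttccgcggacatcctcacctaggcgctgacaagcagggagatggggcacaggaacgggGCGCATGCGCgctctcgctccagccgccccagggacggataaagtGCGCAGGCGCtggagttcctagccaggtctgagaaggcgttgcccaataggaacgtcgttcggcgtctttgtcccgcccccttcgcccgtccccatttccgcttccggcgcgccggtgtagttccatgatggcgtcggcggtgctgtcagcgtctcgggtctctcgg
Uqcrh, chr4:116075021-116075320, minus strand: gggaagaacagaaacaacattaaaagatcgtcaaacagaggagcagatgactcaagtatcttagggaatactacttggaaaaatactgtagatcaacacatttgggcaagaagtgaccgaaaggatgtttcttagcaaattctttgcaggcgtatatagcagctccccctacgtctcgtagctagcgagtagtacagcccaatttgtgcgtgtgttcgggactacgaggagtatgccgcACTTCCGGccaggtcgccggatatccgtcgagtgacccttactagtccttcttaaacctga
Ndufs7, chr10:80249199-80249498, plus strand: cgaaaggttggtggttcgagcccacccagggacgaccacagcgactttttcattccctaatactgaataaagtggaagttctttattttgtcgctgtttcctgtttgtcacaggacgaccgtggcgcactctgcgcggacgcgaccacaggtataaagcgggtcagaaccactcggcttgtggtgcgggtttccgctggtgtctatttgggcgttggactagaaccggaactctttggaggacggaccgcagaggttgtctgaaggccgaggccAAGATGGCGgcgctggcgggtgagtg
Ndufa5, chr6:24527477-24527776, minus strand: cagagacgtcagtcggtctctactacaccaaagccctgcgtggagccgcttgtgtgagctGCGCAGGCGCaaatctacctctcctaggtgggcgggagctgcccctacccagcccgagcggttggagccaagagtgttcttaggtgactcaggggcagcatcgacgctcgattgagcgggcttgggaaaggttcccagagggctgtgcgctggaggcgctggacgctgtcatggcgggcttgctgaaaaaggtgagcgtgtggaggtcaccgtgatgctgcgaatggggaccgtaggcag

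Complex I, the NADH dehydrogenase, had the most genes, and 17 of its 39 fell and 4 rose (43.6% and 10.3%, against 21.8% and 16.8% of all genes). Its conserved core subunits carry the flavin, the iron-sulphur clusters and the quinone site. Ndufs7, which holds the iron-sulphur cluster next to the quinone site, went from 0.074, 0.014 and -0.054 (scrambled) to -0.61, -0.73 and -0.86 (labelled Sox2 shRNA). Its log2 difference was -0.75 ± 0.095 (limma adjusted p = 7.5e-04), with all 3 arrays labelled Sox2 shRNA below the scrambled ones. Ndufs1, the largest core subunit, fell by 0.66 (SE 0.10), from values between -0.13 and 0.14 to values between -0.77 and -0.54. Its groups did not overlap either. The flavoprotein Ndufv1, where NADH is oxidised, moved the other way. It read 0.077, 0.0087 and -0.059 in the scrambled arrays and 0.47, 0.42 and 0.36 in those labelled Sox2 shRNA, a rise of 0.41 ± 0.083 (limma adjusted p = 0.00688). Its 3 probe sets did not agree, with differences of 0.68, 0.65 and -0.11. Of other core subunits, Ndufs3 (-0.096), Ndufs8 (-0.053) and Ndufv2 (-0.0088) were not called, with adjusted p-values from 0.375 to 0.937, and their groups overlapped. The probe sets of Ndufs8 and of Ndufv2 disagreed in sign. With the most variable ones, a choice that favours large gaps, Ndufs8 (-0.47) and Ndufv2 (-0.53) were called lower. With those of highest mean, a choice that favours rises, both read 0.30 and were not called (limma adjusted p = 0.0555 and 0.0788). Ndufs1 (-0.39, limma adjusted p = 0.125) and Ndufv1 (0.27, 0.224) lost their calls under the spike-in covariate, and Ndufs7 kept its own (-0.97, 0.00467). With the probe set of highest mean, Ndufs7 was not called (-0.30, limma adjusted p = 0.16). On centred values that choice favours probe sets higher in the arrays labelled Sox2 shRNA, here and below.

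Accessory subunits surround the core of complex I, and 12 of the 29 measured fell and 3 rose (41.4% and 10.3%, against 21.8% and 16.8% of all genes). Ndufa7 had the greatest fall of the complex, from -0.019, 0.014 and 0.031 in the scrambled arrays to -1.14, -0.93 and -0.83 in those labelled Sox2 shRNA (difference -0.98 ± 0.10, limma adjusted p = 3.0e-04). Ndufs5 went from 0.0031, -0.03 and 0.026 to -1.01, -0.79 and -0.73, a difference of -0.84 ± 0.097. Both were clear of the scrambled arrays on each array, and both were also called with the spike-in covariate, at -0.72 and -0.62. Ndufa1 (-0.87 ± 0.12) and Ndufb11 (-0.72 ± 0.081) fell as well, with the groups apart. Under the spike-in covariate Ndufb11 kept its call (-0.66) and Ndufa1 lost it (-0.52, limma adjusted p = 0.0539). These 2 genes are X-linked, and of 433 X-linked genes measured 41.8% fell and 7.62% rose, so that the share of falls on the X chromosome was near that of the members. The falls of Ndufa6, Ndufa4, Ndufa12, Ndufc2, Ndufa8, Ndufb3, Ndufb10 and Ndufb2 lay between 0.54 and 0.27 in size. The call of Ndufb2 was lost without scrambled array 1, 2 or 3 (-0.23, -0.27 and -0.31, limma adjusted p = 0.136, 0.118 and 0.0753), without array 3 labelled Sox2 shRNA (-0.26, 0.0683) and with the probe set of highest mean, where it read 0.052. Under the spike-in covariate Ndufa12 (-0.55) and Ndufb10 (-0.56) were called, and Ndufa6 (-0.37, limma adjusted p = 0.129), Ndufa8 (-0.30, 0.232), Ndufb3 (-0.45, 0.0734), Ndufb2 (-0.31, 0.214), Ndufa4 (-0.14, 0.571) and Ndufc2 (-0.18, 0.553) were not. Ndufa4, an NADH dehydrogenase gene by name whose protein is now counted with complex IV, differed by -0.50, and was not called without scrambled array 3 (-0.48, limma adjusted p = 0.0555). Ndufc2, of the membrane arm, was not called without scrambled array 1, 2 or 3 (-0.48, -0.50 and -0.50, adjusted p = 0.0569, 0.0526 and 0.0546). Among the rises, Ndufa5, of the arm that meets the quinone, read 0.11, -0.071 and -0.076 in the scrambled arrays and 0.40, 0.45 and 0.40 in those labelled Sox2 shRNA (0.43 ± 0.088). It was called whichever array was left out, but not under the spike-in covariate (0.34, limma adjusted p = 0.183). Its NRF1 letters are shown above. Its 2 probe sets differed by 0.73 and 0.12. The rise of Ndufa2, near the NADH site, was 0.40 ± 0.11 and was not called without scrambled array 2 or 3 (0.40 and 0.34, limma adjusted p = 0.0776 and 0.106). That of Ndufb6, of the membrane arm, was 0.27 ± 0.079 and was not called without any 1 scrambled array (0.28, 0.27 and 0.27, adjusted p from 0.0875 to 0.107), without array 2 or 3 labelled Sox2 shRNA (0.26 and 0.25, adjusted p = 0.0577 and 0.0565) or with each array centred on its median (0.22, 0.0656). The 2 probe sets of Ndufb6 differed by 0.48 and 0.067. Under the spike-in covariate Ndufa2 (0.05, limma adjusted p = 0.851) and Ndufb6 (0.36, 0.118) were not called either. The rises of complex I came to 2 without scrambled array 2 or 3. The 14 uncalled accessory genes lay between -0.24 (Ndufs4) and 0.28 (Ndufb7). Without array 1 labelled Sox2 shRNA, Ndufs4 (-0.25, limma adjusted p = 0.0333) and Ndufs6 (-0.25, 0.0435) were called lower and Ndufb5 (0.27, 0.0137) higher.

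The assembly factors of complex I, which leave before it is complete, were few. Ndufaf1 read 0.029, 0 and 0.071 in the scrambled arrays and -1.19, -0.52 and -0.31 in those labelled Sox2 shRNA, so that array 1 lay far below the other two. Its difference of -0.71 ± 0.20 was called (limma adjusted p = 0.028), but not without scrambled array 1, 2 or 3 (-0.71, -0.73 and -0.69, adjusted p = 0.0807, 0.0724 and 0.0891), and it was -0.016 with the spike-in covariate. Ndufaf4 fell by 0.36 (SE 0.11), and that call was lost without scrambled array 1, 2 or 3 (-0.30, -0.36 and -0.41, adjusted p = 0.116, 0.0936 and 0.0564). Ndufaf3 was not called (0.28 ± 0.19), with array 3 labelled Sox2 shRNA at 0.79 and the others at 0.091 and 0.07.

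Complex II, succinate dehydrogenase, also belongs to the citric acid cycle and is the complex without mitochondrially encoded subunits. All 4 of its genes were below 0 and 3 fell, a share of 75% of a small number, against 21.8% of all genes. Sdhd, a membrane anchor, fell 2.34-fold: it read -0.028, 0 and 0.094 in the scrambled arrays and -1.47, -1.09 and -1.05 in those labelled Sox2 shRNA (-1.22 ± 0.12, limma adjusted p = 2.8e-04). Sdhb, the iron-sulphur subunit, read -0.092, 0.0008 and 0.071 against -0.73, -0.62 and -0.67 (-0.67 ± 0.085, limma adjusted p = 7.6e-04). In both, the groups were far apart, and both were called with the spike-in covariate (-0.83 and -0.52). Sdha, the flavoprotein that oxidises succinate, fell by 0.34 (SE 0.095, limma adjusted p = 0.0236). That call was lost without scrambled array 1, 2 or 3 (-0.37, -0.32 and -0.34, adjusted p = 0.0636, 0.0934 and 0.0865), without array 2 labelled Sox2 shRNA (-0.34, 0.0525) and with the spike-in covariate (-0.14, 0.568). The other anchor, Sdhc, was not called (-0.28 ± 0.13, limma adjusted p = 0.111), as array 2 labelled Sox2 shRNA read -0.012 beside -0.41 and -0.33. Without that array Sdhc was called lower (-0.40, adjusted p = 0.0273).

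Complex III, the cytochrome bc1 complex, passes electrons from reduced coenzyme Q to cytochrome c. Of its 8 genes 4 fell and 0 rose, 50% against 21.8% of all genes. Uqcrfs1, the Rieske iron-sulphur protein, read -0.099, 0 and 0.10 in the scrambled arrays and -1.04, -0.71 and -0.81 in those labelled Sox2 shRNA (-0.86 ± 0.11, limma adjusted p = 8.2e-04). Uqcrh, the hinge protein that helps bind cytochrome c1, read -0.019, 0.0061 and 0.013 against -0.75, -0.69 and -0.76 (-0.73 ± 0.076, limma adjusted p = 3.2e-04). The core protein Uqcrc1 fell by 0.52 (SE 0.084) and the small subunit Uqcr11 by 0.60 (SE 0.079), with no overlap between the groups in either. The other core protein, Uqcrc2, was not called (-0.25 ± 0.12), with -0.49, -0.17 and -0.074 in the arrays labelled Sox2 shRNA. Uqcr10 (-0.12), Uqcrq (-0.11) and Uqcrb (0.078) were not called. With the probe set of highest mean, a choice that favours rises, Uqcrb was called higher (0.35, limma adjusted p = 0.0246). Under the spike-in covariate Uqcrc1 lost its call (-0.36, limma adjusted p = 0.111), while the other 3 falls kept theirs. Leaving out any 1 array kept the count of 4 falls.

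Of the 17 genes of complex IV, cytochrome c oxidase, 5 fell and 3 rose (29.4% and 17.6%), shares near the 21.8% and 16.8% of all genes. Whether complexes differ was not tested. Its widely expressed nuclear subunits fell or were not called. Cox7a2 read -0.017, 0.04 and 0.0099 in the scrambled arrays and -0.80, -0.67 and -0.75 in those labelled Sox2 shRNA (-0.75 ± 0.081, limma adjusted p = 3.7e-04). Cox5a read 0.012, -0.036 and 0.016 against -0.97, -0.67 and -0.61 (-0.75 ± 0.11, limma adjusted p = 0.00153). Cox6a1, whose promoter is shown above, fell by 0.68 (SE 0.11), Cox7c by 0.62 (SE 0.089) and Cox4i1, a regulatory subunit, by 0.46 (SE 0.095), and all 5 had groups that did not overlap. Cox5b (0.0026), Cox6b1 (-0.068), Cox6c (-0.24), Cox8a (-0.26) and Cox7a2l (-0.14), the last known as a factor of supercomplexes, were not called. Without array 2 labelled Sox2 shRNA, Cox8a was called lower (-0.35, limma adjusted p = 0.0456). Under the spike-in covariate Cox5a (-0.46, limma adjusted p = 0.0968), Cox6a1 (-0.34, 0.15) and Cox4i1 (-0.23, 0.304) lost their calls. With the probe set of highest mean, Cox7c was not called (-0.16, limma adjusted p = 0.252).

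Of the 6 complex IV isoforms known from restricted tissues 3 rose, 0 fell and 3 were not called, where 16.8% of all genes rose and 21.8% fell. This split by tissue was not among the planned classes, and the number is small. Cox8c, known from testis, read -0.072, 0.21 and -0.17 in the scrambled arrays and 1.26, 0.42 and 0.60 in those labelled Sox2 shRNA (0.77 ± 0.21, limma adjusted p = 0.0241). Cox8b, the isoform of heart and muscle, read -0.086, 0 and 0.053 against 0.32, 0.69 and 0.28 (0.44 ± 0.12, limma adjusted p = 0.0253). Cox4i2, an isoform of lung, read 0.18, 0 and -0.093 against 0.38, 0.59 and 0.42 (0.43 ± 0.10, limma adjusted p = 0.0137). Whether these 3 probe sets lay above background is unknown, and the spread between arrays was wide, with array 1 the highest for Cox8c and array 2 for Cox8b and Cox4i2. The muscle isoform Cox6a2 (0.49 ± 0.19) and the testis isoform Cox6b2 (0.31 ± 0.12) were not called, and Cox7a1, also of muscle, differed by -0.051 ± 0.17. Of 3 markers of skeletal and heart muscle 1 rose and 0 fell, and the medians of the 3 were -0.044, 0 and -0.065 in the scrambled arrays and 0.89, 0.58 and 0.14 in those labelled Sox2 shRNA. Markers of other cells moved too: 2 of 4 macrophage and 2 of 6 osteoblast markers rose, where 16.8% of all genes did, with median differences of 0.27 and 0.13 against 0.46 for muscle, and 0 of 3 endothelial (0.25) and 0 of 3 lymphocyte (0.10) markers were called. The part of these markers in the rises was not tested. Cox8c was not called without scrambled array 1 or 3 (0.74 and 0.69, limma adjusted p = 0.0799 and 0.0908), Cox8b without any 1 scrambled array (0.40, 0.44 and 0.47, adjusted p = 0.0933, 0.0764 and 0.0661) and Cox4i2 without scrambled array 2 or 3 (0.42 and 0.37, adjusted p = 0.0579 and 0.069). The rises of complex IV thus came to 1, 1 and 0 without scrambled array 1, 2 or 3. Under the spike-in covariate Cox8c (0.12 ± 0.285), Cox8b (0.65 ± 0.205) and Cox4i2 (0.41 ± 0.188) were not called, with larger SEs than in the fit without it. Cox6a2 was called higher without array 3 labelled Sox2 shRNA (0.66, limma adjusted p = 0.0216) and Cox6b2 without array 1 (0.35, adjusted p = 0.0494), so that calls among these isoforms turned on single arrays. Differences between isoforms of a pair were not tested.

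**Figure D3:**
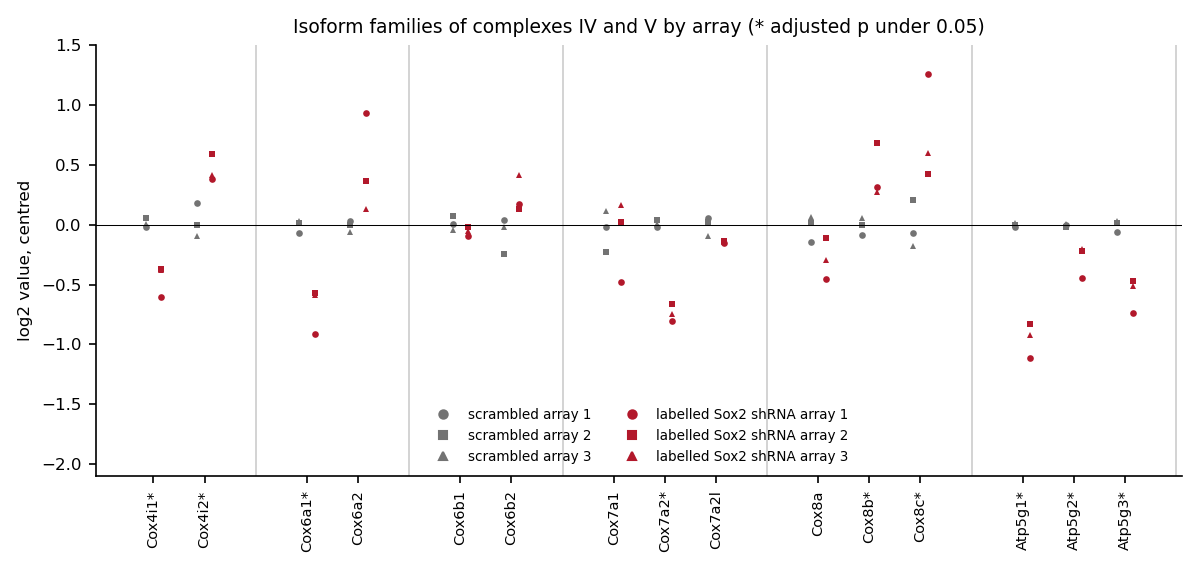
Centred log2 value (vertical axis) of the isoforms of complex IV subunits and of the c subunit of complex V (horizontal axis, families divided by grey lines) on 3 scrambled arrays (grey) and 3 arrays labelled Sox2 shRNA (red). Cox4i1, Cox6a1, Cox7a2, Cox7a2l and the 3 Atp5g genes have all red points below the grey, and Cox4i2, Cox6a2, Cox6b2, Cox8b and Cox8c have all red points above.

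Complex V, the ATP synthase, had 9 falls and 0 rises among its 16 genes, 56.2% against 21.8% of all genes. Atp5b, the catalytic beta subunit of the F1 head, had the greatest fall of all 84 genes, 2.58-fold. It read -0.15, 0.05 and 0.15 in the scrambled arrays and -1.78, -1.11 and -1.17 in those labelled Sox2 shRNA (-1.37 ± 0.18, limma adjusted p = 9.4e-04), and it was called under each alternative tried. Atp5a1, the alpha subunit that alternates with beta in the same ring, read -0.10, 0.022 and 0.047 against -0.13, 0.12 and 0.11. Its difference of 0.044 ± 0.10 was not called, its groups overlapped, and the gap between it and Atp5b was not tested. With the probe set of highest mean, a choice that favours rises, Atp5a1 was called higher (0.32, limma adjusted p = 0.0283). Its other probe set differed by -0.23, so that its call depends on the probe set. In the rest of the head, Atp5d (delta) fell by 0.56 (SE 0.076), a call lost with the probe set of highest mean (-0.28, limma adjusted p = 0.0805), and Atp5c1 (gamma, -0.078) and Atp5e (epsilon, 0.046) were not called.

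The c ring turns as protons pass, and its identical mature subunit is encoded by 3 genes, all of which fell. Atp5g1 read -0.022, 0 and 0.012 in the scrambled arrays and -1.12, -0.83 and -0.92 in those labelled Sox2 shRNA (-0.95 ± 0.096, limma adjusted p = 2.7e-04). Atp5g3 fell by 0.57 (SE 0.097) and Atp5g2 by 0.28 (SE 0.094). The call of Atp5g2, near the threshold (limma adjusted p = 0.0471), was lost without scrambled array 1, 2 or 3 (-0.28, -0.29 and -0.28, adjusted p = 0.126, 0.124 and 0.144) and without array 2 labelled Sox2 shRNA (-0.32, 0.0546). Of the peripheral stalk, which holds the head still, Atp5j (-0.64 ± 0.13), Atp5f1 (now Atp5pb, -0.49 ± 0.10) and Atp5o (-0.47 ± 0.095) fell, and Atp5h was not called (-0.16). With the probe set of highest mean Atp5f1 was not called (-0.25, limma adjusted p = 0.0957). All 4 genes of the stalk had the 3 arrays labelled Sox2 shRNA below the scrambled arrays, with array 1 the lowest. Among other membrane subunits Atp5j2 fell by 0.29 (SE 0.09) and Atp5k was not called (0.068). The call of Atp5j2 was lost without scrambled array 1, 2 or 3 (-0.26, -0.29 and -0.30, limma adjusted p = 0.132, 0.11 and 0.104) and with the probe set of highest mean (-0.17, 0.197). Under the spike-in covariate Atp5b (-0.66), Atp5g1 (-0.73) and Atp5d (-0.58) were called, and Atp5j (-0.23), Atp5f1 (-0.22), Atp5g3 (-0.31), Atp5g2 (-0.071), Atp5o (-0.28) and Atp5j2 (-0.16) were not.

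Probe sets of 1 gene disagreed in places, and 46 of the 84 genes had more than 1. In 6 genes the log2 differences of the probe sets lay over 1 apart. Sdhd had -1.91 ± 0.22 and -0.54 ± 0.09, both falls. Ndufc2 had -1.07 and 0.074, and Ndufaf4 -1.03 and 0.31. Ndufa12 had -1.02, -0.54 and -0.51, and 0.084 on a probe set aligned to the X chromosome, while the gene lies on chromosome 10. Uqcrq had -0.75, 0.0059 and 0.40. It fell when its most variable probe set, a choice that favours large gaps, stood for it (-0.75, limma adjusted p = 8.3e-04). The 6 probe sets of Cox5b ran from -0.54 to 0.62. With that of highest mean, a choice that favours rises, the gene was called higher (0.62, limma adjusted p = 0.0352). The means given above for Ndufc2, Ndufaf4, Ndufa12, Uqcrq and Cox5b therefore stand between unlike readings. That of Sdhd joins 2 falls of unlike size, and only the probe set at -1.91 fell at least 2-fold. For 12 genes, 19 probe sets were aligned in the deposited table to another chromosome than the RefSeq gene, or not at all; why was not tested. For Ndufb11, Ndufs3, Uqcrb, Uqcrh and Cox7a2l this held for every probe set, so that their values are less certain. Without such probe sets 36 genes fell and 7 rose of the 79 left, against 21.6% and 17% of all genes.

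**Figure D4:**
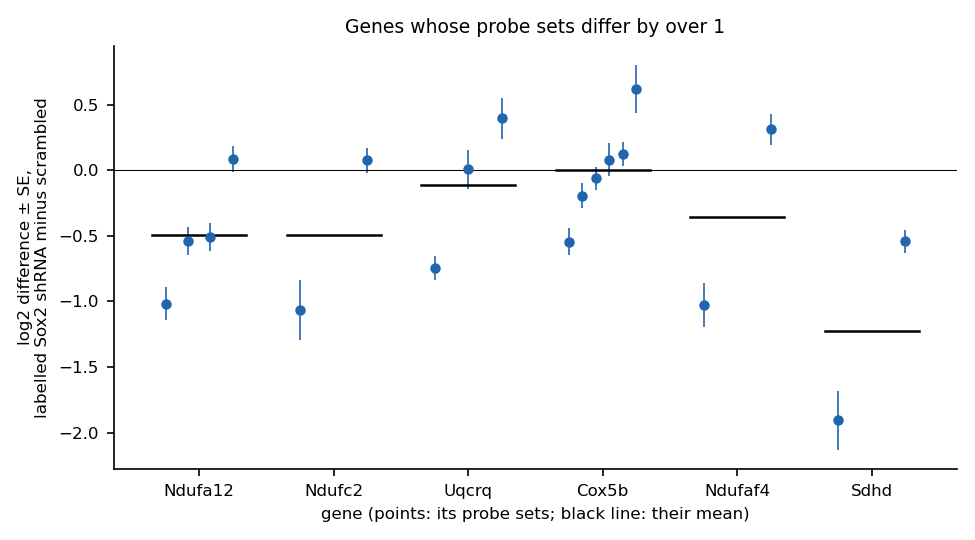
Log2 difference (vertical axis, labelled Sox2 shRNA minus scrambled, with the limma SE, 3 arrays per group) of each probe set of the 6 genes whose probe sets differ by over 1 (horizontal axis), with a black line at the mean used for the gene. The probe sets of Sdhd lie on the same side of 0, from -1.91 to -0.54, and those of the other 5 genes on both sides.

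**Figure D5:**
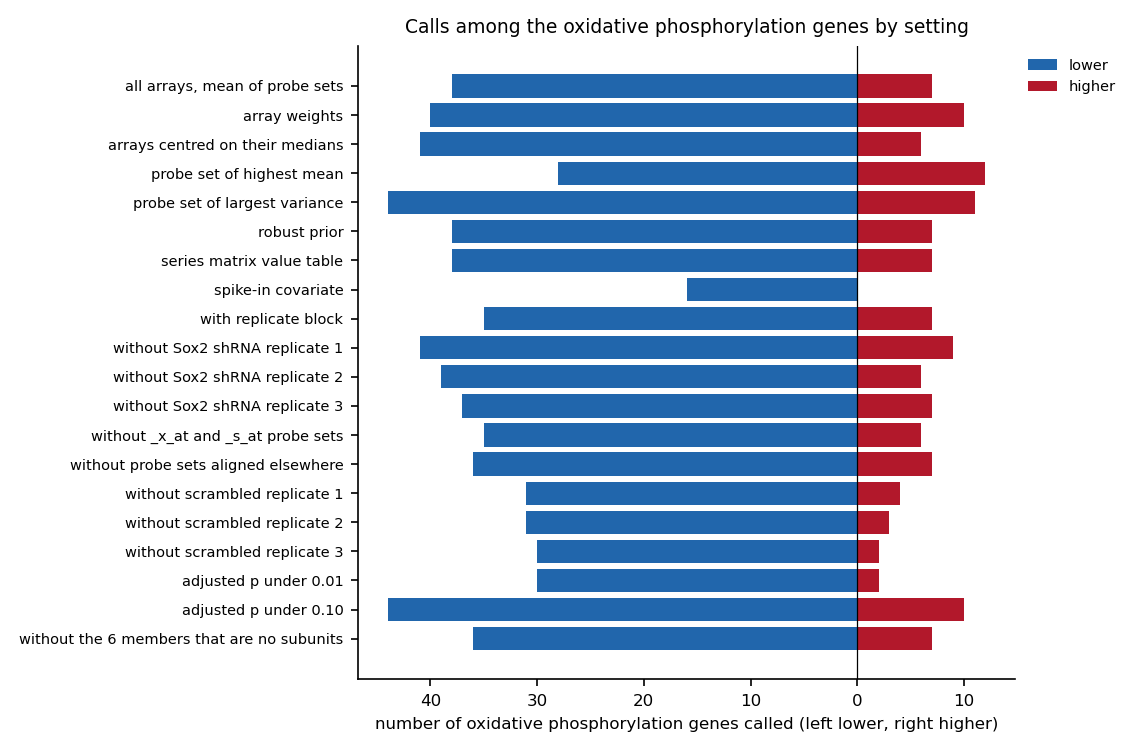
Number of the oxidative phosphorylation genes called lower (blue, to the left) and higher (red, to the right) under each way of fitting (vertical axis). Falls outnumber rises under each, from 44 falls with the probe set of largest variance (11 rises) and at an adjusted p under 0.1 (10 rises) to 16 with the spike-in covariate, where 0 rose. The choice by variance favours probe sets with a large gap between the groups.

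Read against all genes, the members' share of falls was above the background under each way of fitting, and the share of rises below it. Without array 1, 2 or 3 labelled Sox2 shRNA, 41, 39 and 37 members fell against 23.7%, 20.9% and 21.6% of all genes, and 9, 6 and 7 rose against 20.4%, 16.4% and 18.6%. Array weights gave 40 falls (24.1% of all genes) and 10 rises (21.7%), and centring each array on its median 41 falls (24%) and 6 rises (13.7%). The replicate block gave 35 falls (21.1%) and 7 rises (16.2%), and a robust prior on the variance 38 falls (21.5%) and 7 rises (16.5%). The most variable probe set gave 44 falls (24.8%) and 11 rises (17.3%), that of highest mean 28 falls (14.4%) and 12 rises (19%). Both choices were made on the tested values. The variance favours large gaps between the groups, and the mean favours higher values in the arrays labelled Sox2 shRNA. Leaving out the less specific _x_at and _s_at probe sets gave 35 falls (21.5%) and 6 rises (15.8%) among 80 members. At an adjusted p under 0.01, 30 members fell and 2 rose, against 14% and 8.01% of all genes, and under 0.1, 44 fell and 10 rose, against 25.3% and 24.1%.

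Genes that serve the chain without being found by the rule were taken from lists written with earlier results of these data known. For comparison, 21.8% of all genes fell and 16.8% rose. Of 5 electron carriers 4 fell and 1 rose (80% and 20%). They included Cyc1, the cytochrome c1 subunit of complex III, with -0.03, 0.09 and 0.017 in the scrambled arrays and -0.44, -0.31 and -0.32 in those labelled Sox2 shRNA (-0.38 ± 0.084), and Cycs, cytochrome c itself (-0.27 ± 0.092). The electron transfer flavoprotein genes split: Etfdh fell by 1.46 (SE 0.27) and Etfa by 1.05 (SE 0.23), and Etfb rose by 0.48 (SE 0.077). Of 10 genes of coenzyme Q synthesis 2 fell and 2 rose (20% each, near the shares of all genes), with Pdss1 at -0.65, Coq4 at 0.65 and Adck4 (now Coq8b) at 0.82. Of 27 further assembly factors 13 fell and 2 rose (48.1% and 7.41%), a median difference of -0.36. The falls of lowest adjusted p were those of Ecsit, of complex I (-0.89 ± 0.076), the complex IV factor 2310016M24Rik (now Cox14, -0.72 ± 0.08) and the complex I factor Acad9 (-0.60 ± 0.081).

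Of 18 regulators of respiratory and mitochondrial genes 9 fell and 1 rose (50% and 5.56%, against 21.8% and 16.8% of all genes), with a median difference of -0.20. Tfam, which packs mitochondrial DNA and starts its transcription, had the lowest adjusted p, and went from -0.021, -0.00081 and 0.10 to -1.99, -1.66 and -1.64 in the order of the arrays (-1.79 ± 0.11, limma adjusted p = 3.3e-05). Gabpa, an ETS factor, fell by 0.90 (SE 0.10) and Mterfd1 (now Mterf3) by 0.83 (SE 0.12). The other factors whose motifs were searched were Nrf1 (-0.55 ± 0.12) and Yy1 (-0.28 ± 0.085), both lower, and Esrra (0.30 ± 0.079), higher, with limma adjusted p-values of 0.00929, 0.0324 and 0.0192. They were named for their motifs after their values were seen. No relation between a factor and the genes that hold its letters was tested.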

How the data were processed

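RNA of 6 plates, 3 per group, had been hybridised to 1-colour Affymetrix mouse 430A 2.0 arrays, and the authors used GCOS 1.4 and RMA, per the submitters' processing notes. RMA settings and the genome build are not stated here. The deposited log2 values are centred per probe set. The log base is not stated and was taken as log2 because RMA returns it. Both deposited tables held equal values (0 cells differed). Of 22690 probe sets, 64 controls were left out, and the 21556 naming 1 gene were used, 21181 matched to RefSeq by Entrez number. Probe sets of a gene were averaged. Groups were fitted with limma 3.58.1 (R 4.3.3) without covariates, with Benjamini-Hochberg adjustment over 13213 genes at 0.05 (± is limma's SE, n = 3 arrays per group). The number of arrays limits the precision.

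The members, lists and tests were chosen with earlier results of these data known. Genes named were up to 6 called genes per complex by size, fixed anchor subunits, isoform families, genes with probe sets over 1 apart, and all rises. A result for 1 member is not reported here. Ndufa4l2, planned among the isoforms, was not used here. Same-numbered arrays deviated little together over genes (correlations 0.116, -0.025 and 0.17), so the numbers were not taken as pairs. The hybridisation spike-ins did fall from array 1 to 3 in both groups. They read 0.24, -0.13 and -0.22 in the scrambled arrays and 1.26, 0.58 and 0.56 in those labelled Sox2 shRNA. Whether the numbers mark a shared order was not tested. The fit was tested on simulated data. Alternatives covered the block, table, centring, covariate, probe set rule, variance model, weights, threshold and each array left out. Leaving out the 6 genes that are not subunits, or probe sets aligned elsewhere, was chosen after seeing the data. Figures were drawn with matplotlib 3.10.9 in Python 3.11.15.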

Additional observations from a re-analysis of the deposited data

How the results depend on the processing

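With the replicate number as a block, 35 genes fell and 7 rose. The numbers were not taken as pairs elsewhere. The block moved no count of the members or of a complex by over 1.5 times. Under it Atp5g2 (limma adjusted p = 0.0695), Atp5j2 (0.0723), Ndufaf4 (0.0539), Ndufb2 (0.0669) and Ndufb6 (0.0609) lost their calls, and Cox6a2 (0.0435) and Cox4nb (0.0429) gained one. With the spike-in covariate 842 of all genes rose and 1035 fell. Complex I then had 6 falls, 0 rises and a median of -0.084, complex II a median of -0.33, complex IV 2 falls and 0 rises, and complex V 3 falls and a median of -0.17, while the members gave 16 falls, 0 rises and -0.15. The probe set of highest mean, which on centred values favours probe sets higher in the arrays labelled Sox2 shRNA, gave 1900 falls over all genes (14.4%) and 28 falls and 12 rises among the members, with a median of -0.061. Its medians for complexes I to V were 0.052, a reversal, then -0.43, -0.30, -0.051 and -0.18, with 1 rise in complex III and 1 rise and 5 falls in complex V. Under it Ndufa12 (0.084), Ndufaf4 (0.31), Ndufb2 (0.052) and Ndufc2 (0.074) turned above 0, and Ndufa12 did so also without _x_at and _s_at probe sets (0.084). The probe set of largest variance, which favours large gaps between the groups, gave 11 rises and a median of -0.43. Its medians were -0.43, -0.59, -0.56 and -0.43 for complexes I, II, III and V, with 1 rise in complex III. Without _x_at and _s_at probe sets the median of complex II was -0.59. With each array centred on its median that of complex I was -0.24. Array weights gave 5 rises in complex IV. At an adjusted p under 0.01, 1058 of all genes rose and 1848 fell, and 2 members rose, 2 in complex I and 0 in complex IV, and at 0.10 complex IV had 5 rises and 8 falls. Without the 6 genes that are not subunits the medians of complexes I and V were -0.17 and -0.38. Over the 6 arrays left out in turn, the rises numbered 1155 to 2695 over all genes, 2 to 9 among the members, 2 to 5 in complex I and 0 to 4 in complex IV, and the median of complex I ran from -0.22 to -0.17. Of the 38 falls, 30 were called with each array left out, and of the 7 rises 2 were. Of the 38 falls, 12 were called in all 15 other fits that measured them. The cause of these changes was not tested. Signal over background, which limits each value, is unknown because the probe sets were centred.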

Other observations

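Genes of protein import into mitochondria, also taken from a list written with earlier results known, fell more often than they rose. Of 17 measured, 12 fell and 1 rose, with a median difference of -0.56, against 21.8% and 16.8% of all genes that fell and rose. Timm8a1, a chaperone of the space between the membranes, read -0.00026, 0 and -0.051 in the scrambled arrays and -1.17, -1.54 and -1.43 in those labelled Sox2 shRNA (-1.36 ± 0.11). Its partner Timm13 differed by -1.01 ± 0.092 and the outer membrane receptor Tomm70a by -0.89 ± 0.091, while Timm44, of the import motor, rose by 0.51 (SE 0.088). Of 10 carriers and channels 3 fell and 1 rose (30% and 10%, near the shares of all genes), and the other 6 were not called. The channel Vdac2 (-1.58 ± 0.12), the phosphate carrier Slc25a3 (-1.10 ± 0.12) and the ADP/ATP carrier Slc25a5 (-1.17 ± 0.15) fell more than 2-fold, and Ucp2, named after the uncoupling proteins, rose by 0.84 (SE 0.12) and was chosen for naming after its value was seen. Timm8a1 and Slc25a5 are X-linked.

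Respiratory genes on probe sets that name more than 1 gene were outside the rule. The probe set of Atp5l, of the ATP synthase membrane part, shared with Gm10221, read 0.021, -0.03 and 0.022 in the scrambled arrays and -1.07, -0.76 and -0.70 in those labelled Sox2 shRNA (-0.85 ± 0.12). The 2 probe sets of Ndufb4, a complex I accessory subunit, shared with Gm3244, differed by -0.59 ± 0.14 and -0.63 ± 0.12.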
